A study of Oryza sativa with 6 samples.

Results

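The genes described here form a window on rice chromosome 10 around the gene that was raised most in leaves given the protein ShSDH1. All listed genes of that chromosome with a serial number from 18100000 to 18200000 were taken, at any level, which gave 102 of the 29011 genes in the deposited table. In these identifiers, which begin with OsR498G, the first 2 of 10 digits were read as the chromosome and the rest as the serial number. That serial numbers follow position along the chromosome was assumed, since no coordinates were used here. The window was chosen by the fold changes of OsR498G1018152300.01, OsR498G1018152700.01 and OsR498G1018152900.01 between the same groups that are compared below. Their differences are therefore given as a description with no test, and nothing is supported by the number of raised genes in the window.

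The samples were leaves of rice seedlings 2 weeks old, treated with a purified protein for 6 h, with 3 RNA-seq libraries per group. The ShSDH1 group received an oxidoreductase of the endophyte OsiSh-2, a microbe that lives inside rice plants. The Control group received the pCold TF protein; vectors of that name add the bacterial chaperone trigger factor to a protein as a tag. The labels give no rice variety, and they do not say whether the ShSDH1 protein kept such a tag or whether the libraries came from separate plants or pools. Differences between groups can therefore be set only against a spread among libraries that may be technical.

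Plant cells sense microbial proteins and fragments of their own damaged cell wall through receptors at the cell surface, and change the transcription of many genes within hours. Plant genes that respond to such signals often stand in tandem arrays that arose by local duplication, and some rice clusters, such as those for diterpenoid phytoalexins, are induced together. The table names the genes of the window only by identifier, and 0 of its identifiers matched the 39387 genes of the reference table, so no product, gene family or leaf marker can be given. The genes are therefore called by their place in identifier order, from 1 to 102, and the 3 genes that placed the window stand at 68, 69 and 70.

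Levels are FPKM, fragments scaled to the length of the gene and to the depth of the library, so they can be compared between genes. Steps in the low values gave whole fragment numbers, gene lengths and totals of 33654750 to 41776866 fragments per library. In bulk leaf tissue, fewer cells that express a gene and less RNA per cell cannot be told apart. A gene was tested when it reached 1 FPKM in at least 3 of the 6 libraries.

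The most raised gene of the whole table on the log2(FPKM + 1) scale, OsR498G1018152700.01 at place 69, was almost absent from Control leaves. Its level was 0.176, 0 and 0.0209 FPKM in Control replicates 1, 2 and 3, and 24.5, 14.5 and 48.9 FPKM in ShSDH1 replicates 1, 2 and 3. The lowest ShSDH1 library lay far above the highest Control library, and ShSDH1 replicate 3 was more than 3-fold above ShSDH1 replicate 2 (ratio 3.37). Control leaves had a mean of 0.066 ± 0.096 FPKM and ShSDH1 leaves one of 29.3 ± 17.7 FPKM (SD, n = 3 each). With only 9 Control fragments over the 3 libraries against 3628 with ShSDH1, the ratio of pooled fragments per depth was 426, with an exact 95% interval of 224 to 932. This interval, like the others given for fragments, covers counting error only and not the spread between libraries. On the log2(FPKM + 1) scale, which understates changes of low genes, the difference was 4.67 ± 0.35 (SE).

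OsR498G1018152900.01, the gene listed next at place 70, had the third largest rise of the 1759 genes called higher, on the log2(FPKM + 1) scale. By pooled fragments its ratio was the lowest of those at places 59, 68, 69 and 70. The interval of that ratio lay within those at places 59 and 68, so its rank below these genes is uncertain. Control replicates 1, 2 and 3 had 0.0747, 0.237 and 0.118 FPKM, and ShSDH1 replicates 1, 2 and 3 had 15.003, 7.92 and 20.8 FPKM. The groups did not overlap, and again ShSDH1 replicate 3 was the highest library and ShSDH1 replicate 2 the lowest with this protein. The gene had 17 Control and 1603 ShSDH1 fragments, a pooled ratio of 99.6 (exact 95% interval 62.0 to 171), and a log2(FPKM + 1) difference of 3.68 ± 0.28 (SE).

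OsR498G1018152300.01, at place 68, was raised to a lower level and ranked 11 on the log2(FPKM + 1) scale among the genes called higher. It had 0.0238, 0.0756 and 0 FPKM in Control replicates 1, 2 and 3, against 4.79, 1.76 and 8.11 FPKM in ShSDH1 replicates 1, 2 and 3. The groups did not overlap, and the ShSDH1 libraries differed more in this gene than in its raised neighbours, with the highest 4.60 times the lowest. Its 4 Control fragments against 555 with ShSDH1 gave a pooled ratio of 147 with a wide exact 95% interval of 56.9 to 540. The log2(FPKM + 1) difference was 2.35 ± 0.36 (SE).

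**Figure D1:**
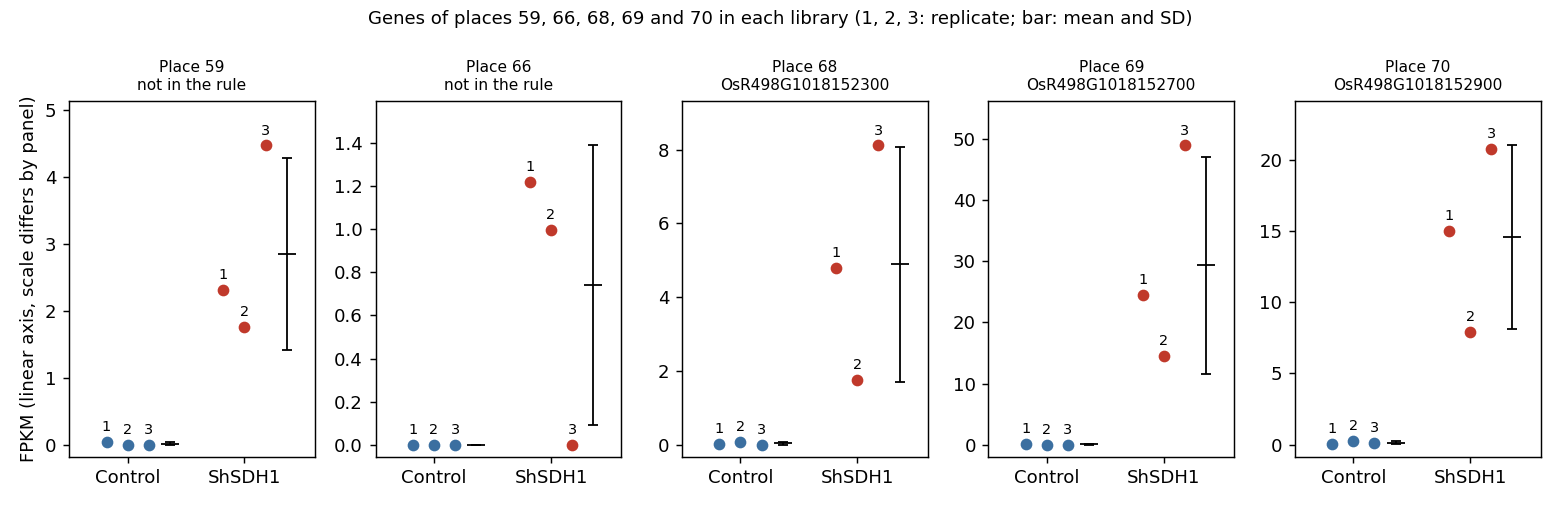
FPKM of the genes at places 59, 66, 68, 69 and 70 in each library (vertical axis linear, its scale differing between panels), with points numbered by replicate and a bar for the mean and SD of 3 libraries per group. ShSDH1 replicate 3 is the highest library at places 59, 68, 69 and 70, where it reaches 4.47, 8.11, 48.9 and 20.8 FPKM, and is listed at 0 at place 66.

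A gene that the choice of the window did not use, at place 59, followed the same course. It had 0.0396, 0 and 0 FPKM in the Control libraries and 2.31, 1.76 and 4.47 FPKM in ShSDH1 replicates 1, 2 and 3. Every ShSDH1 library was above every Control library, and the order of the ShSDH1 libraries was that of the genes at places 68, 69 and 70. The gene rested on 2 Control fragments and 395 ShSDH1 fragments, a pooled ratio of 209 (exact 95% interval 57.4 to 1729), and its log2(FPKM + 1) difference was 1.86 ± 0.23 (SE), rank 18 among the genes called higher. It was not adjacent to the other 3: the 8 listed genes between place 59 and place 68 are described next.

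None of the genes between them was called. At place 63 Control leaves had 8.13 ± 0.14 FPKM and ShSDH1 leaves 8.74 ± 0.24 FPKM (SD, n = 3 each), a difference that did not pass the test although the groups did not overlap. At place 61 the means were the other way round, at 2.71 FPKM in Control and 1.91 FPKM in the ShSDH1 libraries, and this gene did not pass either. Places 60, 62 and 64 had group means of at most 0.063 FPKM. Place 65 had means of 0.372 FPKM for Control and 0.634 FPKM for ShSDH1, with overlapping groups, and was too low to be tested.

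Places 66 and 67, directly before the 3 genes, were listed at 0 in every Control library and above 0 with ShSDH1. At place 66 the levels were 1.22, 0.997 and 0 FPKM in ShSDH1 replicates 1, 2 and 3, so that this gene was listed at 0 in the library where its raised neighbours were highest. At place 67 they were 0.104, 0.0221 and 0.0824 FPKM in the same libraries, levels so low that nothing is read from their order. Fragment numbers were read for neither gene, since both were above 0 in fewer than 4 libraries. Both were under the level needed for a test, and no fold can be given against a group listed at 0. After the 3 genes, the gene at place 71 had 0.122 ± 0.011 FPKM under Control and 0.222 ± 0.018 FPKM under ShSDH1 treatment (SD, n = 3 each), without overlap but untested, and the gene at place 72 stayed at 0.031 and 0.025 FPKM. Place 73 holds an abundant gene, at 26.9 ± 0.9 FPKM in the Control libraries and 27.1 ± 1.8 FPKM in the ShSDH1 libraries (SD, n = 3 each).

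**Figure D2:**
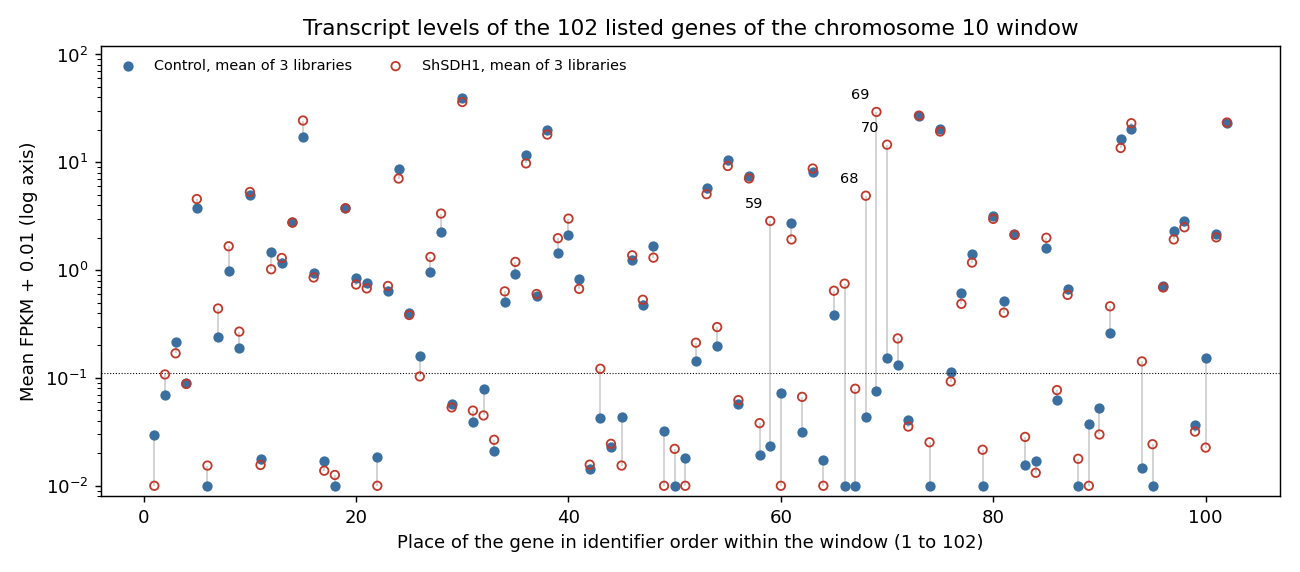
Mean FPKM plus 0.01 (log axis) of the 102 window genes by place in identifier order, with filled points for Control and open points for ShSDH1 (3 libraries each), grey lines joining the means of a gene and a dotted line at 0.1 FPKM. The long lines at places 59, 68, 69 and 70 end at ShSDH1 means of 2.85, 4.89, 29.3 and 14.6 FPKM, while the abundant genes at places 30 and 73 have nearly equal means in both groups.

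Much of the window was silent in Control leaves. A Control mean under 0.1 FPKM, a limit set after the values had been seen, was found in 41 of the 102 genes (40.2%), against 24.8% of the 1470 other listed genes of chromosome 10 and 22.6% of the whole table. The median Control mean over the listed genes was 0.241 FPKM in the window, 1.59 FPKM in the rest of chromosome 10 and 2.14 FPKM in the table. Means of 10 FPKM or more were found in 10 window genes (9.80%) and in 26.8% of the table. These shares are descriptions of unequal numbers of genes and were not tested.

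Of the 41 near-silent genes, 35 were also under 0.1 FPKM with ShSDH1. Another 3, at places 59, 68 and 69, were at 1 FPKM or more in every ShSDH1 library, and the remaining 3, at places 43, 66 and 94, had ShSDH1 means of 0.112, 0.739 and 0.132 FPKM. Over all listed genes, 8 of 6551 near-silent genes (0.122%) reached 1 FPKM in every ShSDH1 library, so that 3 of these 8 genes were in the window. Since 2 of the 3 placed the window, nothing is read from that share. Place 70 was just outside the limit, with a Control mean of 0.144 FPKM. The reverse course, from 1 FPKM or more in every Control library to a mean under 0.1 FPKM with ShSDH1, was seen in 0 window genes and in 1 gene of the table.

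The test across the table was limma on log2(FPKM + 1) with Benjamini-Hochberg adjustment over all 17247 tested genes, and a gene was called at an adjusted p under 0.05. In the window 39 genes were tested, of which 8 were called higher, 0 lower, and 31 did not pass, while 63 were too low for the test. Over all tested genes 14.0% were called and 10.2% were called higher with the FPKM as deposited. Without the 3 genes that placed the window, 5 of 36 tested genes (13.9%) were called, all 5 higher. These 5 include place 59, which reached the level needed for the test through its ShSDH1 libraries alone. They also include place 8, which would not have been tested without its ShSDH1 libraries. Nothing is read from this share, which stands beside 14.0% in either direction and 10.2% higher over the table. The median log2 fold change of these 36 genes was -0.02, beside 0.03 in the rest of chromosome 10 and 0.04 over the table.

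The 8 calls fell into large and small rises. The 4 genes at places 59, 68, 69 and 70 had log2 fold changes of 1.86 to 4.67, and the other 4, at places 8, 15, 28 and 40, had 0.37 to 0.49. The most abundant called gene, at place 15, had 15.4, 18.4 and 17.6 FPKM in Control and 23.5, 26.4 and 23.3 FPKM in ShSDH1 replicates 1, 2 and 3. All its ShSDH1 libraries were above all its Control libraries and lay within 1.13-fold of each other. Its log2 fold change was 0.49 ± 0.08 (SE).

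Place 8 went from 0.972 ± 0.213 to 1.66 ± 0.21 FPKM (SD, n = 3 each). Place 28 went from 2.23 ± 0.23 to 3.34 ± 0.29 FPKM, and place 40 from 2.09 ± 0.13 to 2.99 ± 0.37 FPKM (SD, n = 3 each). In these 3 genes the groups did not overlap, but the calls were close to the threshold: of 14 other settings that tested them, 1, 5 and 4 called the genes at places 8, 28 and 40. Place 15 was called in all 15 settings that tested it. Places 59, 68, 69 and 70 reached the level needed for the test through their ShSDH1 libraries alone, so their calls are no support for a difference. The same holds for the call at place 8, which would not have been tested without its ShSDH1 libraries. Its Control replicates 1, 2 and 3 had 1.19, 0.770 and 0.951 FPKM. Leaving out any library other than ShSDH1 replicate 2 left 5 of the 8 calls in the window. Leaving out that library gave 7 calls, of which 6 were among the 8.

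The calls of genes with small differences depended on the scaling of the libraries. With quantile normalization or median-ratio size factors 5 window genes were called higher and 2 lower, in place of 8 and 0. The 2 lower genes, at places 38 and 92, went from 20.1 to 18.1 FPKM and from 16.3 to 13.6 FPKM, and did not pass with the FPKM as deposited. Both genes were below Control with ShSDH1 in every setting run. The same scalings moved the split over all tested genes from 1759 higher and 647 lower to 1252 and 984 with quantile normalization and to 1165 and 883 with median-ratio size factors.

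**Figure D3:**
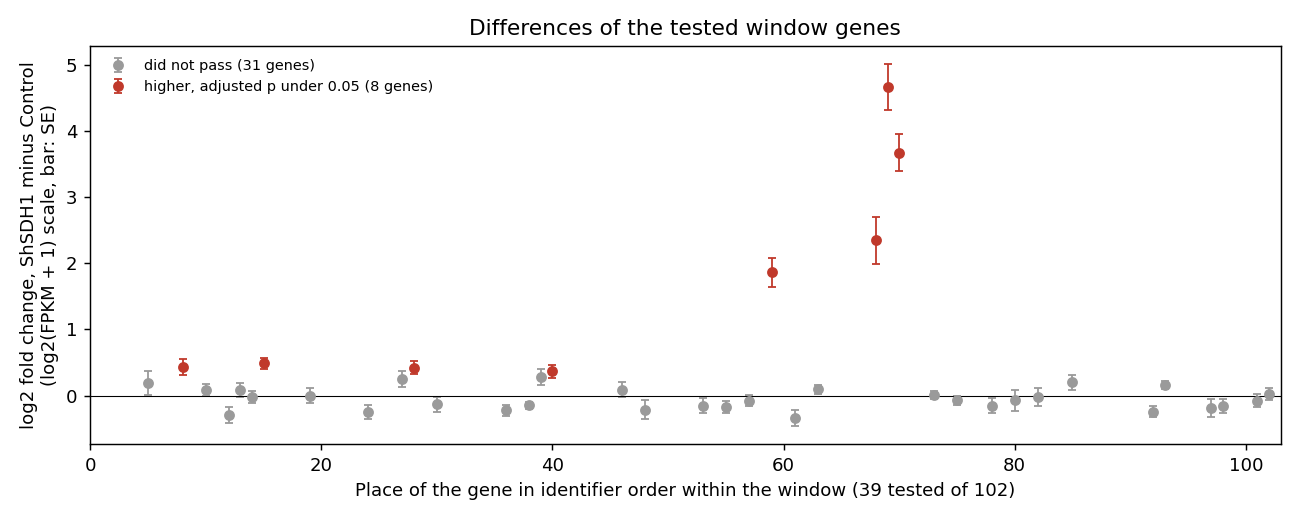
Difference in log2(FPKM + 1), ShSDH1 minus Control, of the 39 tested window genes by place in identifier order, with bars for the SE and red points for genes called higher. The red points at places 59, 68, 69 and 70 lie at 1.86 to 4.67 and the grey points between -0.34 and 0.28.

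The 5 genes with the highest mean over all libraries stood at places 30, 73, 102, 93 and 15, and of these 5 the gene at place 15 was the one called. Control and ShSDH1 means were 39.6 ± 2.6 and 36.2 ± 5.7 FPKM at place 30, and at place 93 they were 20.5 ± 0.5 and 23.0 ± 1.6 FPKM (SD, n = 3 each). Among the 31 tested genes that did not pass, log2 fold changes ran from -0.34 to 0.28. Groups did not overlap in 9 of these 31 genes, of which 3 were above Control with ShSDH1 and 6 below it. No share over all genes without a call is given here, so nothing is read from that split. The largest differences among these 9 were at places 61, 12, 39 and 24, with log2 fold changes of -0.34, -0.29, 0.28 and -0.25. Counting called genes too, ShSDH1 lay wholly above Control in 11 of the 39 tested window genes and wholly below in 6, beside 23.4% and 11.8% of all tested genes. Among the 63 untested genes the groups were apart in 6 genes upwards and in 2 downwards, beside 8.11% and 5.19% of all 11764 untested genes. One of the 6, at place 94, had 0, 0 and 1 fragments in Control and 11, 7 and 8 fragments in ShSDH1 replicates 1, 2 and 3.

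Summed over the 99 other genes, the window had like levels in both groups. Their FPKM added to 294, 291 and 300.4 in Control replicates 1, 2 and 3 and to 305, 287 and 301 in ShSDH1 replicates 1, 2 and 3, so the groups overlapped. Places 68, 69 and 70 together had 0.274, 0.313 and 0.139 FPKM in the Control libraries and 44.3, 24.2 and 77.8 FPKM in the ShSDH1 libraries. They made 0.046% to 0.108% of the summed FPKM of the window in Control and 12.7%, 7.78% and 20.5% in ShSDH1 replicates 1, 2 and 3. The sum of the whole window was 295 ± 5 FPKM for Control and 346 ± 34 FPKM for ShSDH1 (SD, n = 3 each).

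**Figure D4:**
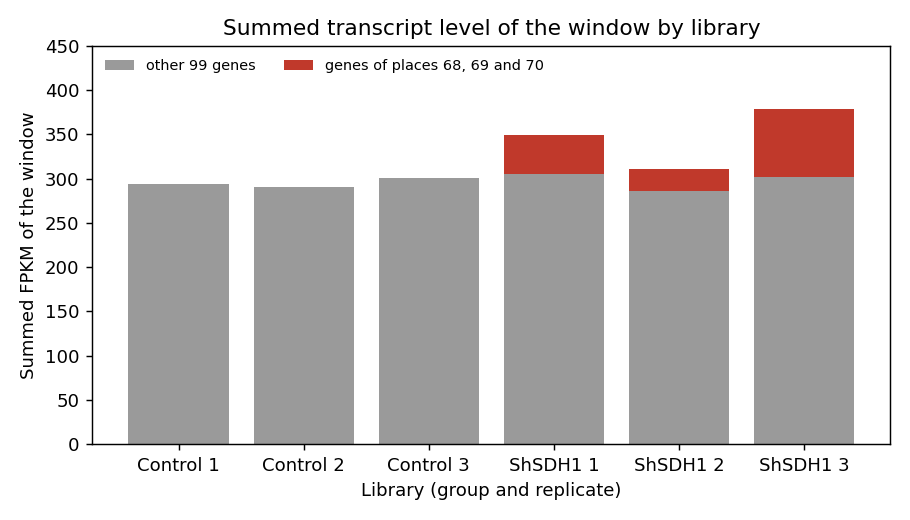
Summed FPKM of the window in each library (vertical axis from 0), with the genes at places 68, 69 and 70 in red on top of the other 99 genes in grey. The grey parts lie between 287 and 305 in all 6 libraries, and the red parts reach 24.2 to 77.8 in the ShSDH1 libraries.

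The 4 strongly raised genes shared the order of the ShSDH1 libraries, with replicate 3 above replicate 1 and replicate 1 above replicate 2. Places 8, 15, 28 and 40 each had another order. Relative to its own ShSDH1 mean, replicate 3 stood at 1.57, 1.66, 1.67 and 1.43 and replicate 2 at 0.619, 0.361, 0.495 and 0.544 in the genes at places 59, 68, 69 and 70. Between the lowest and the highest ShSDH1 library the level differed 2.54 to 4.60 times in these genes, 1.13 to 1.28 times in the other 4 called genes, and a median of 1.21 times in the tested genes that were not called. Outside the window the same order was found in 168 of 1751 higher genes (9.59%). It was found in 23 of the 64 of these that rose at least 2-fold in FPKM + 1 (35.9%). Over all 64, the median ratio of the highest to the lowest ShSDH1 library was 1.42. Over all tested genes the order was found in 3950 of 17247 (22.9%). It was also found in 10 of the 31 tested window genes that were not called, so tested genes without a call had it too. All these genes come from the same 3 libraries. Depth ran the other way, with 35635022, 41776866 and 33654750 fragments in ShSDH1 replicates 1, 2 and 3, and its part in the shared order was not tested.

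**Figure D5:**
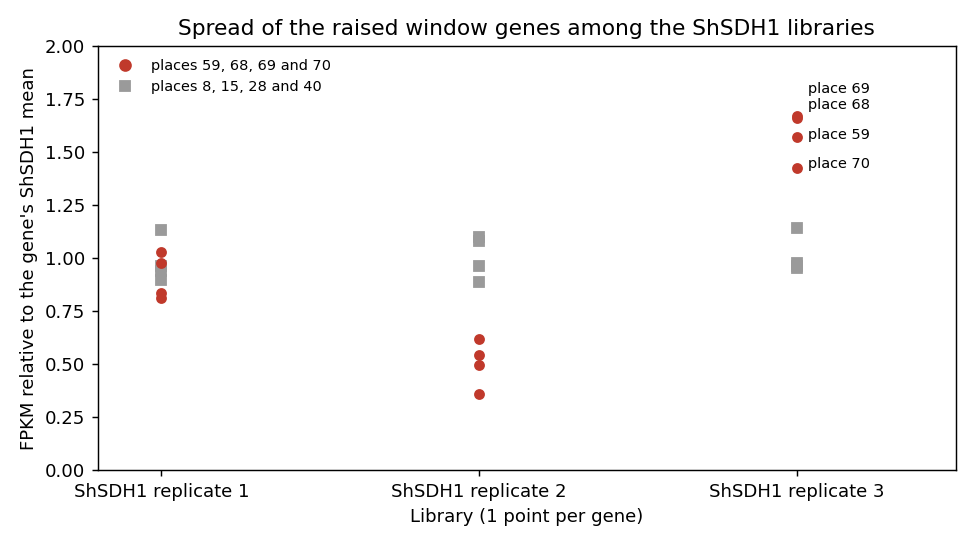
FPKM of the 8 called window genes in each ShSDH1 library, relative to the mean of the gene over the 3 libraries (linear axis). Circles for places 59, 68, 69 and 70 lie at 0.361 to 0.619 in replicate 2 and at 1.43 to 1.67 in replicate 3, while squares for places 8, 15, 28 and 40 lie between 0.888 and 1.14 in every library.

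Places 68, 69 and 70 also resembled each other in length. The lengths read from the FPKM steps were 1073, 1161 and 1025 bases, and that of the gene at place 59 was 1289 bases. Lengths under 1200 bases, a limit set after these values had been seen, were found in 14 of the 81 window genes with a length (17.3%) and in 21.0% of such genes of the table. Window lengths ran from 634 to 6114 bases with a median of 1797 bases, beside 2033 bases in the table. Serial numbers of the 3 genes were 400 and 200 apart, while the median step between listed neighbours in the window was 600. Steps of 200 also stood between places 61 and 62 and between places 64 and 65, so such steps were not particular to the 3 genes.

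Of the joint fragments of the 3 genes, place 69 had 58.1% in ShSDH1 replicate 1 (exact 95% interval 55.75 to 60.44%), 62.7% in replicate 2 (59.81 to 65.55%) and 65.45% in replicate 3 (63.69 to 67.17%). Place 70 had 31.4% (29.23 to 33.64%), 30.2% (27.56 to 33.02%) and 24.5% (22.97 to 26.12%) in the same libraries. Place 68 had 10.5% (9.09 to 12.02%), 7.05% (5.62 to 8.71%) and 10.03% (8.97 to 11.18%). The order of the 3 genes by fragments was the same in every ShSDH1 library. Separate libraries can differ by more than counting error, and the differences between these shares were not tested. Whether the 3 genes have near-identical stretches among which fragments could have been shared was not tested, since no sequence was used here, and their separate levels are uncertain to that extent.

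At the edges of the window, the first gene inside, at place 1, had Control levels of 0.0081, 0.043 and 0.0077 FPKM and was listed at 0 with ShSDH1, and the gene just before the window had means of 0.0105 FPKM for Control and 0 for ShSDH1. The last gene inside, at place 102, had 22.9 and 23.4 FPKM, and the gene just after the window had 2.03 and 2.25 FPKM in Control and ShSDH1. A window of the same centre and 0.5 times the width held 5 calls among 19 tested genes, all higher, at places 40, 59, 68, 69 and 70. One of 2 times the width held 13 calls among 79 tested genes, 11 of them higher. Over all tested genes 14.0% were called and 10.2% were called higher. Both counts include places 68, 69 and 70, which placed the window, and place 59, which was tested through its ShSDH1 libraries alone. Nothing is therefore read from either count.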

How the data were processed

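The authors deposited 1 table of FPKM values for 6 libraries, with replicates not pooled. Nothing is stated of aligner, counting tool or annotation, and the builds named in the submitters' processing notes are mouse builds, so the rice build was not given in the sources used here. No strand setting is stated, so overlapping genes and near-identical copies may share fragments. Columns were matched to samples by library name, and groups come from the titles. The members, lists and limits were chosen with earlier results of these data known.

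FPKM are not counts, so limma 3.58.1 in R 4.3.3 (lmFit, eBayes with trend) was run on log2(FPKM + 1) over the 17247 genes that reached 1 FPKM in 3 of the 6 libraries or more, two-sided, adjusted by Benjamini-Hochberg over all of them, threshold 0.05. Window genes are rows of that fit. Whole fragment numbers within 0.02 were recovered for all 25303 genes above 0 in at least 4 libraries. Both steps were tested on simulated data. Fragments gave exact 95% intervals (Clopper-Pearson, counting error only) and a voom alternative. Genes named are the 3 of the rule, their neighbours, called genes, the 5 most abundant, the 4 largest differences among genes with separate groups that did not pass, and the edges. Outside this rule, places 38, 43, 60, 62 to 66, 72, 92 and 94 were named after their values were seen. Python 3.11.15, pandas 2.3.3 and matplotlib 3.10.9 were used otherwise.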

Additional observations from a re-analysis of the deposited data

How the results depend on the processing

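Log2 fold changes of the genes at places 59, 68, 69 and 70, of which the last 3 were chosen by this contrast, were 1.86, 2.35, 4.67 and 3.68 with the pseudocount of 1, 4.61, 5.02, 7.44 and 5.86 with 0.1, and 7.27, 7.06, 9.39 and 6.60 with 0.01. Without ShSDH1 replicate 3, their highest library, they were 1.58, 1.95, 4.23 and 3.39. The count of 8 window calls was 3 with a filter at 5 FPKM (17 genes tested), 5 and 13 with 0.5 and 2 times the width, and 5 to 7 when a library was left out. The count of 2406 calls over all genes was 1489 with no filter, where 29011 genes were tested. Omitting single libraries gave from 562 (Control replicate 1 omitted) to 2778 (Control replicate 3 omitted), over the same 17247 genes each time. The cause of these changes was not tested. With the replicate block 2239 genes were called, 6 of them in the window, all 6 shared with the 8. Deviations of libraries with the same number correlated at 0.181, 0.274 and -0.015, and those of libraries with different numbers at -0.286 to 0.148. The labels state no pairing, so the numbers were not taken to pair the libraries. Whether the libraries were paired is not known. The count of 3 near-silent genes was 2, 4 and 4 with limits of 0.05, 0.2 and 0.5 FPKM and 3 or 4 without each library, alternatives chosen after seeing the data. In the window, levels under 0.1 FPKM rest on few fragments.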
